A study of Mus musculus with 42 samples.

Results

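Purkinje cells are the output neurons of the cerebellar cortex. Calbindin, PCP2 and PCP4 are among the proteins that mark the adult cell. In the first postnatal weeks of the mouse Purkinje cells mature and extend their dendritic tree. Over the same days granule cell progenitors and the precursors of molecular layer interneurons still divide nearby, and Bergmann glia line the Purkinje cell layer. The comparison described here is that of the arrays labelled Purkinje cells at postnatal day 7 (P7) with those labelled Purkinje cells at postnatal day 3 (P3), over all genes. The members were chosen by the age and cell type in the sample titles: 3 arrays at P7 and 3 at P3, 6 of the 42 columns deposited for the series.

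Both groups came from the cerebellum of CB6-Tg(Gad1-EGFP)G42Zjh/J (G42) mice labelled male, which carry a Gad67-GFP bacterial artificial chromosome transgene, so that green fluorescent protein follows the promoter of Gad1, the gene for a GABA-synthesising enzyme of inhibitory neurons. The P7 and P3 groups differ in age only, per the labels. Slices of both were kept with AP5, CNQX and TTX, which block glutamate receptors and sodium channels, digested with protease, and single fluorescent cells were picked by hand according to soma size. The transgene does not separate Purkinje cells from other inhibitory neurons, so soma size carried that part of the selection. Polyadenylated RNA was amplified in 2 rounds and hybridised to Affymetrix MOE430.2 arrays, and the labels call the replicates biological. The number of arrays limits the precision, and no detection calls come with the values. Levels are deposited log2 expression values, between 3.94 and 14.6 over all arrays. A difference is P7 minus P3 on that log2 scale, where 1 is a 2-fold difference.

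The 6 arrays carried markers of molecular layer interneurons at both ages. Tfap2b, a transcription factor of the GABAergic interneuron lineage, was at 11.45, 11.39 and 11.44 in P7 arrays, against 11.35, 11.57 and 11.62 in P3 arrays, while the 3 Purkinje arrays of P14 averaged 5.58. Kit, the stem cell factor receptor that marks these interneurons, was at 8.81, 9.66 and 9.55 at P7 and at 9.78, 9.37 and 9.73 at P3, with a P14 Purkinje mean of 5.55. The mean over the 9 measured interneuron markers was 9.70 ± 0.52 at P7 and 9.81 ± 0.03 at P3 (SD, n = 3 each), against 5.94 in Purkinje and 10.45 in Stellate/Basket arrays of P14. By these markers the P7 and P3 arrays lay with the Stellate/Basket arrays of P14 and not with the Purkinje arrays of P14, which goes against the cell type label taken alone.

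The Purkinje markers were at lower levels than in the Purkinje arrays of P14. Their mean over 14 measured genes was 9.10 ± 0.35 at P7 and 7.77 ± 0.83 at P3 (SD, n = 3 each), with 12.30 in Purkinje and 8.28 in Stellate/Basket arrays of P14. The P3 mean thus lay below that of the P14 Stellate/Basket arrays, with P3 replicate 3 lowest at 6.85, and the P7 mean lay above it. By this mean the P3 arrays were not set apart from the other cell type. Fewer Purkinje cells in a sample and less marker RNA per Purkinje cell cannot be told apart in pooled RNA. The arrays are therefore called by their labels, P7 and P3 Purkinje arrays. Gad1 itself, the gene whose promoter drives the reporter, was at 12.40, 12.14 and 11.98 in P7 arrays and at 12.09, 12.07 and 12.31 in P3 arrays.

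**Figure D1:**
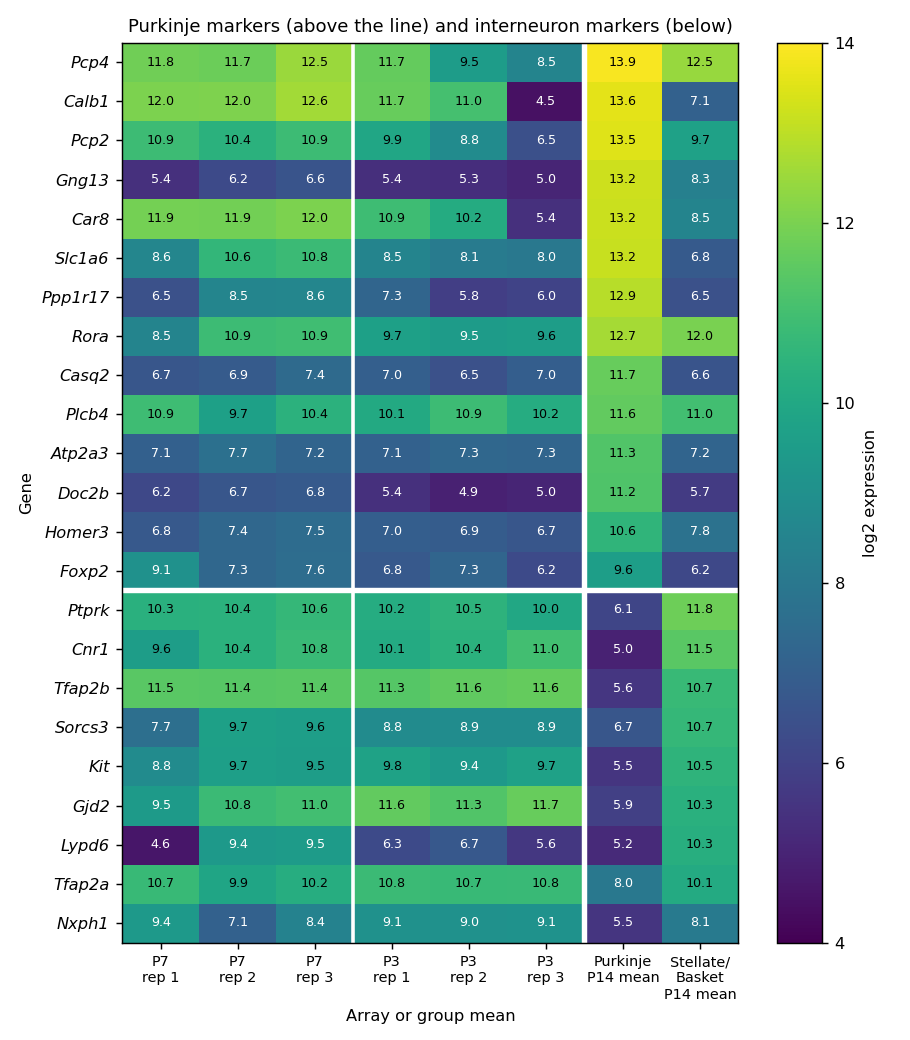
Log2 expression of the measured Purkinje cell markers (above the white line) and molecular layer interneuron markers (below) in the 3 P7 and the 3 P3 arrays, with the group means of P14 Purkinje and P14 Stellate/Basket arrays at the right. Tfap2b lies between 11.35 and 11.62 in all 6 arrays, and Calb1 is at 4.46 in P3 replicate 3 alone.

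The spread between arrays of 1 age was as large as the distance between the ages. The root mean square log2 difference over all 17478 genes averaged 0.394 over the 6 pairs within an age and 0.404 over the 9 pairs across ages. P7 replicates 2 and 3 were closest, at 0.307, whereas P7 replicate 1 stood 0.514 and 0.492 from them, farther than from any P3 array. Distances within P3 ran from 0.333 to 0.380. The first principal component, 37.8% of the variance among the 6 arrays, placed P7 replicate 1 at 40.2 and P7 replicates 2 and 3 at -25.1 and -20.6, with the P3 arrays between 0.25 and 4.88. The second component, 21.2% of the variance, separated the ages, with P7 arrays from 8.50 to 19.1 and P3 arrays from -17.9 to -11.6.

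**Figure D2:**
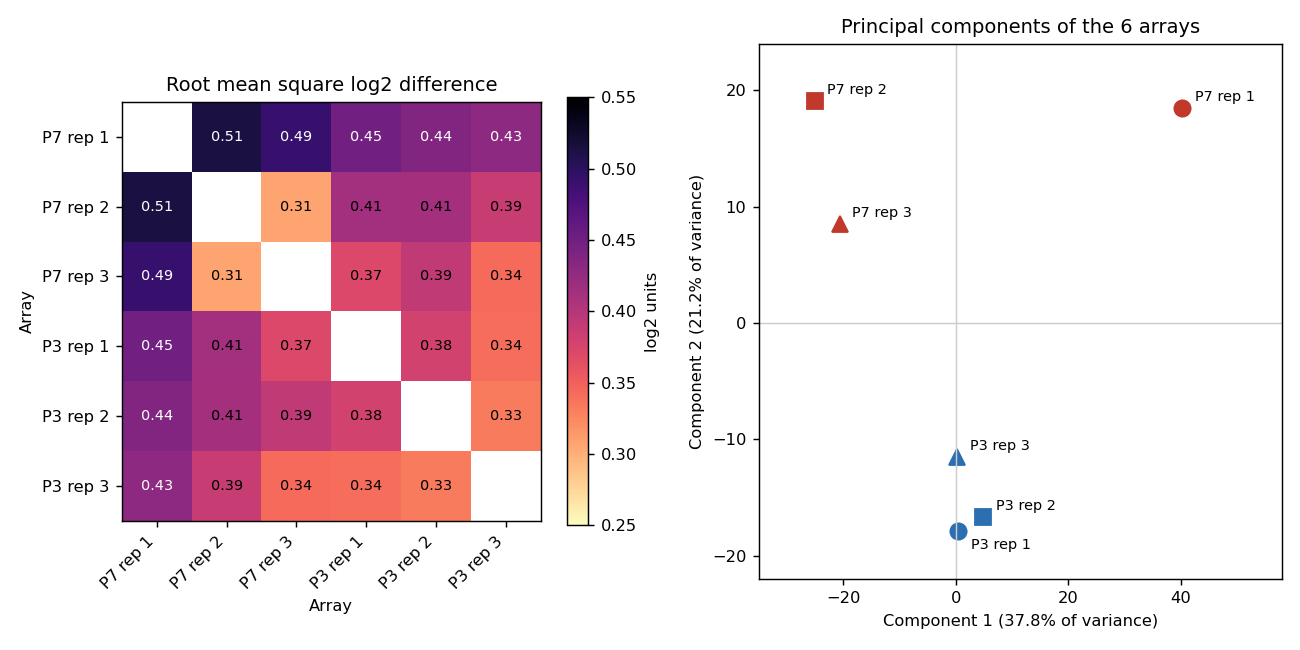
Left, root mean square log2 difference between each pair of the 6 arrays over 17478 genes; right, their scores on the first 2 principal components (axes in log2 units summed over genes; P7 red, P3 blue; circle, square and triangle are replicates 1, 2 and 3). P7 replicate 1 lies at 40.2 on component 1, apart from the other 5 arrays.

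Per gene, the median SD over 3 arrays was 0.168 at P7 and 0.138 at P3. An SD above 1 was found for 186 genes at P7 and 57 at P3. For 166 of the 186 genes, P7 replicate 1 was the array farthest from the P7 median. In 94 of the 186 genes all 3 P3 arrays fell between P7 replicate 1 and the other P7 arrays, an arrangement that 1511 of all 17478 genes (8.65%) had. The 186 genes were picked for a wide spread at P7, so the 2 shares are not a like comparison. At P3 the farthest array of the 57 genes was replicate 1 for 28, replicate 3 for 19 and replicate 2 for 10. P7 replicate 1 lay at least 1 above the other 5 arrays for 83 genes and at least 1 below them for 44. The next largest such count of genes either way was 32, for P7 replicate 2.

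Sex-linked genes also split the arrays, against the labels. Xist, the RNA that silences an X chromosome in female cells, was at 7.22, 12.47 and 12.34 in P7 arrays and at 6.38, 12.75 and 12.45 in P3 arrays. Eif2s3y, a Y-linked gene for a translation factor subunit, was at 8.64, 4.15 and 4.24 at P7 and at 9.24, 4.23 and 4.20 at P3. Replicate 1 of each age thus had low Xist and high Eif2s3y, and replicates 2 and 3 had the reverse, although all 6 are labelled male. Kdm5d and Uty, also Y-linked, stayed between 5.93 and 6.33 and between 4.79 and 5.02. Since each age holds 1 such array, sex-linked expression was balanced between P7 and P3, and the same 9 genes were called with the level of Xist in the model.

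Of the 17478 genes, 7 rose and 2 fell in P7 arrays relative to P3 arrays, by limma over the 40 arrays of the series with a pooled estimate of spread, at an adjusted p under 0.05 and a difference of at least 1. This is 0.0515% of the genes tested, 0.0401% higher and 0.0114% lower. An unadjusted p under 0.05 was found for 610 genes (3.49%), 260 of them higher and 350 lower at P7. Every P7 array lay above every P3 array for 995 genes (5.69%) and below for 735 (4.21%), 9.9% together. Shares of this size can also arise among unchanged genes. In a fit of the 6 arrays alone, 0 genes were called. The median difference over all genes was 0.01. A difference of at least 1 either way was measured for 106 genes (0.606%), 57 higher (0.326%) and 49 lower (0.28%) at P7, of which 65 had arrays that did not overlap and 97 did not pass the test.

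Nrk, a Nik-related serine/threonine kinase, had the largest called difference. It was at 8.76, 9.12 and 10.07 in P7 arrays, against 7.92, 6.13 and 4.59 in P3 arrays. All P7 values were above all P3 values, and the P3 arrays were spread far more widely (SD 0.68 at P7, 1.66 at P3). The difference was 3.10 ± 0.58 (SE; 8.58-fold; limma, adjusted p = 0.0257). Nrk averaged 12.75 ± 0.12 in P14 Purkinje arrays (SD, n = 3) and 5.22 in P14 Stellate/Basket arrays. Its 2 other probe sets, of lower signal, differed by 0.36 and 0.10, and with the mean of the 3 the difference was 1.18 (adjusted p = 0.253).

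Pcp4, which encodes a small calmodulin-binding protein of Purkinje cells, was at 11.82, 11.74 and 12.51 at P7 and at 11.65, 9.55 and 8.51 at P3. P3 replicate 1 lay just under the lowest P7 array, so the gap between the ages rests on P3 replicates 2 and 3. The difference was 2.12 ± 0.40 (SE; 4.34-fold; limma, adjusted p = 0.0257). Without P3 replicate 3 it was 1.42, with an adjusted p of 0.167, and that of Nrk was 2.29, also with an adjusted p of 0.167.

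Aldoc, the glycolytic enzyme aldolase C, is the antigen (zebrin II) whose stripes divide the adult Purkinje cell layer. It was at 8.69, 10.44 and 11.19 in P7 arrays, against 8.52, 8.54 and 7.83 in P3 arrays. P7 replicate 1 lay just above the highest P3 array, and the other P7 arrays well above it. The difference was 1.81 ± 0.34 (SE; adjusted p = 0.0257, limma), 2.52 without P7 replicate 1 and 1.57 without P3 replicate 3 (adjusted p = 0.13). P14 Purkinje arrays averaged 14.12 and P14 Stellate/Basket arrays 10.26. The other Aldoc probe set, of lower signal, differed by 0.17, and with the mean of both the difference was 0.99 (adjusted p = 0.427).

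The other 4 genes that rose differed by less. Tmem255a, a transmembrane protein gene, was at 8.60, 7.84 and 8.44 in P7 arrays and at 7.41, 6.56 and 5.57 in P3 arrays (difference 1.78 ± 0.35, SE). Spon1, which encodes the secreted matrix protein F-spondin, was at 7.47, 8.66 and 9.17 at P7 and at 6.23, 6.93 and 6.91 at P3 (difference 1.74 ± 0.35). Spon1 was the exception among the 7 in its later level: it averaged 6.10 in P14 Purkinje arrays and 10.59 in P14 Stellate/Basket arrays, whereas the other 6 had higher means at P14 than at P7 in Purkinje arrays. Exph5, a Rab27 effector, had the smallest spread at P3, with 8.30, 9.18 and 8.56 at P7 against 7.24, 7.12 and 7.23 at P3 (difference 1.49 ± 0.29). Chst11, a chondroitin 4-O-sulfotransferase, was at 8.52, 8.16 and 8.76 at P7 and at 7.07, 7.23 and 7.75 at P3 (difference 1.13 ± 0.22). These 4 had adjusted p-values of 0.033, 0.0365, 0.0357 and 0.0328 in that order (limma). Other probe sets, all of lower signal, differed by 0.03, 0.73 and 0.27 for Tmem255a, by 1.56, 0.95 and -0.04 for Spon1 and by 0.24 for Chst11. With the mean of a gene's probe sets none of these 3 was called: the difference was 0.70 for Tmem255a (adjusted p above 0.99), 1.05 for Spon1 (adjusted p = 0.0902) and 0.68 for Chst11 (adjusted p = 0.0026, with a difference under 1). Exph5 has 1 probe set. Without P3 replicate 3, Chst11 was the only gene called higher at P7 (1.33, adjusted p = 0.0144).

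**Figure D3:**
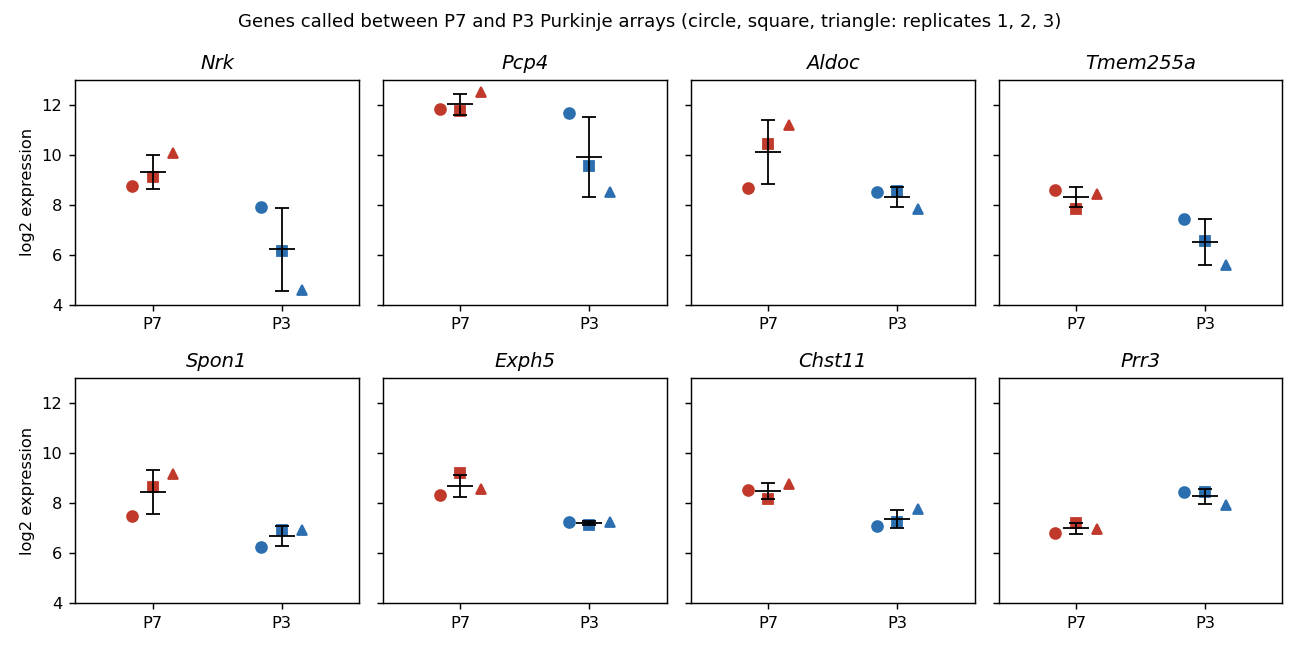
Log2 expression of the 8 named genes called between P7 (red, left) and P3 (blue, right) Purkinje arrays; each point is an array, and bars give the mean and SD of 3 arrays. In every panel the P7 and P3 arrays do not overlap, and for Nrk and Pcp4 at P3 replicate 1 is the highest array and replicate 3 the lowest.

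Of the 2 genes that fell, 1 has a clone name and is only counted. The other, Prr3, was at 6.79, 7.21 and 6.95 in P7 arrays, against 8.42, 8.46 and 7.91 in P3 arrays, a difference of -1.28 ± 0.22 (SE; 2.43-fold lower at P7; limma, adjusted p = 0.0148). Among genes lower at P7 whose arrays did not overlap, Adgrg2, an adhesion G protein-coupled receptor (-0.53 ± 0.11), and Macroh2a2, a histone variant (-0.80 ± 0.16), had an adjusted p of 0.0439 with differences under 1. Chfr, a ubiquitin ligase of the mitotic checkpoint, did not pass the test: it was at 7.58, 7.55 and 7.76 at P7, against 9.51, 8.74 and 8.10 at P3 (adjusted p = 0.0573). Arg1, the arginase of the urea cycle, was at 10.07, 8.14 and 9.60 at P7 and within 10.55 to 10.61 at P3 (-1.31 ± 0.28; adjusted p = 0.0627). In P14 Purkinje arrays its mean was 5.16. Gsk3b, a kinase of Wnt and insulin signalling (-1.12 ± 0.24), the focal adhesion protein gene Tes (-0.83 ± 0.18) and the transcription factor gene Tfcp2 (-1.09 ± 0.24) had adjusted p-values of 0.063, 0.0659 and 0.0659 and were not called.

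Purkinje cell markers had the highest median difference of the 34 gene lists examined, 1.34 over 14 measured genes against 0.01 over all genes. The size depended on the probe set: with the mean of a gene's probe sets the median of the list was 0.69. 1 of the 14, Pcp4, was called. 9 had an unadjusted p under 0.05, all higher at P7, against 1.49% of all genes. 8 had every P7 array above every P3 array, against 5.69% of all genes. Calb1, the calcium buffer calbindin, had the largest difference of the list and did not pass the test. It was at 12.03, 12.05 and 12.60 in P7 arrays, against 11.68, 11.04 and 4.46 in P3 arrays (3.17 ± 1.01, SE; adjusted p = 0.587). P3 replicate 3 was the outlying value: 0.154% of the genes tested had a lower value in that array, against 98% and 96.1% in P3 replicates 1 and 2. Without it the difference was 0.87.

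Car8, a carbonic anhydrase-related protein that binds the IP3 receptor, followed Calb1 closely, at 11.91, 11.87 and 12.02 at P7 and at 10.91, 10.16 and 5.38 at P3 (3.11 ± 0.75; adjusted p = 0.128), or 1.39 without P3 replicate 3. Pcp2, a modulator of G protein signalling found in Purkinje and retinal bipolar cells, was at 10.87, 10.39 and 10.86 at P7, against 9.93, 8.81 and 6.46 at P3 (2.31 ± 0.50; adjusted p = 0.0659), or 1.34 without that array. For these 3 genes, Nrk and Pcp4 alike, P3 replicate 1 was the highest and replicate 3 the lowest P3 array. Slc1a6, the Purkinje glutamate transporter EAAT4, had another arrangement: 8.61, 10.62 and 10.80 at P7 and 8.51, 8.15 and 7.99 at P3 (1.80 ± 0.44; adjusted p = 0.133), with P7 replicate 1 near the P3 level. Without P7 replicate 1 it rose by 2.50 (adjusted p = 0.00106, limma). Without P7 replicate 2 or 3 instead, its difference was 1.49 or 1.40 and not called.

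Doc2b, a calcium sensor of vesicle release, was at 6.16, 6.69 and 6.83 at P7 and at 5.37, 4.91 and 5.03 at P3 (1.45 ± 0.37; adjusted p = 0.177), far below its P14 mean of 11.24. Its other probe set differed by 0.06, and with the mean of both the difference was 0.76. Ppp1r17, a protein phosphatase inhibitor, was at 6.48, 8.53 and 8.59 at P7, against 7.25, 5.85 and 6.02 at P3. Gng13, a G protein subunit, was at 6.08 ± 0.63 at P7 and 5.23 ± 0.18 at P3 (SD), and at 13.25 at P14. Foxp2, a transcription factor, averaged 7.99 ± 0.93 and 6.76 ± 0.50, with its highest value, 9.06, in P7 replicate 1. The remaining markers, Rora, Homer3, Casq2, Atp2a3 and Plcb4, differed by between -0.05 and 0.54. Rora, a nuclear receptor required for Purkinje cell maturation, was at 8.53, 10.86 and 10.95 at P7, on both sides of its P3 values of 9.67, 9.47 and 9.58.

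The start regions of genes in this group are shown because Pcp4 and Pcp2 share a hexamer there. AGGTCA, the core letters bound by nuclear receptors of the ROR family, was searched on both strands (TGACCT on the other) from 250 bases before to 50 after each RefSeq gene start (GRCm38.p6). It occurred in 16.3% of the 32851 promoters of the table, which belong to 27025 genes, 4900 of them with the hexamer. 9 of 18 Purkinje markers matched the table by symbol, with 14 promoters, of which 5 (35.7%) held it. These belong to 3 of the 9 genes, Pcp2, Pcp4 and Homer3; Pcp2 alone has 4 entries, so the promoters are not separate genes. Of the 9 called genes, 7 matched, and 1 of their 9 promoters held it. Capitals mark the hexamer in the first Pcp2 entry and in Pcp4; Nrk, the gene with the largest difference, is given for comparison and has no match in this window. Pcp4 lies at chr16:96467356-96467655 (+), Pcp2 at chr8:3625498-3625797 (-) and Nrk at chrX:138914180-138914479 (+).
Pcp4: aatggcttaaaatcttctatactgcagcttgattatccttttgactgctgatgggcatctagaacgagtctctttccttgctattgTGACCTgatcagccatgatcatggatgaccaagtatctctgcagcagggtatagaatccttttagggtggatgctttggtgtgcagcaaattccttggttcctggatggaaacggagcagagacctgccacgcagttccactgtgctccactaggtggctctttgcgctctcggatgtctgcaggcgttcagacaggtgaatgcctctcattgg
Pcp2: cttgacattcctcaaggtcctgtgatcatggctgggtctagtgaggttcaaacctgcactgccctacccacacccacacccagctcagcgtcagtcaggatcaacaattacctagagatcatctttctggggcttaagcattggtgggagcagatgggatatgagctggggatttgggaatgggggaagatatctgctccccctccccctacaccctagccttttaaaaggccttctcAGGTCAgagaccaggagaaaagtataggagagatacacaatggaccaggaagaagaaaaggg
Nrk: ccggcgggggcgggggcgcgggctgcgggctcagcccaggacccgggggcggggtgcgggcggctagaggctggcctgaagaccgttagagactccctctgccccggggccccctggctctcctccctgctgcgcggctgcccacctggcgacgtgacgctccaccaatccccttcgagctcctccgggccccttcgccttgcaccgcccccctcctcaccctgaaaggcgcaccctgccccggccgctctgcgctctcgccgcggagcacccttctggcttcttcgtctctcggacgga

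Interneuron markers had a median difference of -0.25 over 9 genes, and 0 were called by limma (2 had an unadjusted p under 0.05). Gjd2, which encodes the neuronal gap junction protein connexin 36, was at 9.45, 10.81 and 10.98 in P7 arrays, against 11.59, 11.29 and 11.67 in P3 arrays (-1.10 ± 0.36, SE; adjusted p = 0.59). Lypd6, a modulator of nicotinic receptors, was at 4.60, 9.39 and 9.47 at P7 and at 6.26, 6.74 and 5.63 at P3. Its P7 replicate 1 was the lowest of the 6 arrays and the other P7 arrays the highest, and without replicate 1 Lypd6 rose by 3.22 (adjusted p = 1.71e-08, limma). Without P7 replicate 2 or 3 its difference was 0.83 or 0.79 and not called. Cnr1, the cannabinoid receptor, Ptprk, a receptor phosphatase, Sorcs3, a sorting receptor, Tfap2a, a transcription factor, and Nxph1, a neurexin ligand, differed by between -0.75 and 0.25. Zic1, a transcription factor of granule cells that interneurons also carry, was at 11.91 ± 0.09 at P7 and 12.31 ± 0.30 at P3 (SD), against 4.72 in P14 Purkinje arrays.

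Glutamate receptor genes were led by Gria1, an AMPA receptor subunit, at 10.20, 8.60 and 8.32 in P7 arrays, against 7.52, 6.94 and 7.08 in P3 arrays. All P7 arrays were higher, replicate 1 by the most, and the difference of 1.86 ± 0.42 (SE) did not pass the test (limma, adjusted p = 0.0752). Gria1 was chosen after its values were seen, as were Smpx, Dbp, Id2, Strip2 and Jph1 below. The 15 ionotropic glutamate receptor genes had a median difference of 0.02 and 0 called (1 with an unadjusted p under 0.05); Gria4 and Grik3, the brightest, differed by -0.11 and 0.10. The median of 12 genes of mGluR1, IP3 receptor and calcium store signalling was 0.22 with 0 called (2 under 0.05, Calb1 and Car8); Atp2a2, the calcium pump of the store, and Gnaq, the G protein behind mGluR1, differed by 0.07 and -0.09.

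Smpx, a small muscle protein gene, had one of the larger uncalled differences, at 6.64, 6.53 and 7.56 at P7 against 5.23, 5.03 and 4.62 at P3 (1.95 ± 0.46; adjusted p = 0.103). Dbp, a clock-controlled transcription factor, was at 6.96, 8.43 and 9.28 at P7 and at 6.95, 6.42 and 6.84 at P3 (1.49 ± 0.32; adjusted p = 0.063). P7 replicate 1 again lay at the P3 level. Id2, an inhibitor of helix-loop-helix factors, was at 11.13, 10.63 and 11.33 at P7, against 9.83, 9.83 and 9.26 at P3 (1.39 ± 0.31; adjusted p = 0.0659). Strip2 and the junctophilin gene Jph1 differed by 1.67 ± 0.37 and 1.21 ± 0.26 (adjusted p = 0.0659 and 0.0573). Each of these 5 genes lay higher in every P7 array than in the P3 arrays apart from Strip2, whose P7 replicate 2 (7.25) lay under P3 replicate 1 (7.32).

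Across the 34 lists, 484 genes were measured and 2 were called, Pcp4 and Aldoc. 29 had an unadjusted p under 0.05 and were higher at P7, and 17 were lower, against 1.49% and 2% of all genes. Of the medians, 33 lay between -0.25 and 0.22. Stripe pattern genes had a median of 0.15 over 11 genes with Aldoc called; Plcb4, a phospholipase of the zebrin-negative stripes, differed by -0.05. Among 13 Purkinje lineage transcription factors, 3 had an unadjusted p under 0.05 (Foxp2, Ebf1 and Bcl11a, all higher at P7) and 0 were called. En2, a patterning factor, was lower in each P7 array than in each P3 array by -0.35 on average. Potassium channel genes had a median of 0.22 over 20 genes and 0 called (3 under 0.05); Kcna2 averaged 10.03 at P7 and 9.54 at P3, and Kcnd3 differed by -0.21. Of 21 sodium, calcium and HCN channel genes, 1 was under 0.05; Scn2a and Cacna2d2 differed by -0.20 and -0.05.

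Lists of growth and of synapses had medians near that of all genes, with single members farther out. Neurite growth genes had a median of -0.10 over 20 genes, with Tmsb10 at 0.08 and Basp1 at -0.18. Axon and neurofilament genes had 0.13 over 11, with Sptbn1 at 0.13 and Mapt at -0.19, and 47 axon guidance genes had 0.01, with the receptors Neo1 at -0.10 and Sema6d at 0.04. For GABA synthesis, transport and receptor genes the median was 0.01 over 15, and the vesicular GABA transporter Slc32a1 differed by under 0.01. Chloride transport and inhibitory scaffold genes stood at -0.01 over 10, with the chloride exporter Slc12a5 at 0.00 and Clcn3 at -0.13. Presynaptic vesicle genes had 0.05 over 22 (Cplx1 0.07, Syt11 0.07) and synapse organisers -0.03 over 14 (Lrrtm1 -0.15, Nrxn3 -0.30). Housekeeping lists were likewise near the median of all genes: oxidative phosphorylation 0.10 over 28 (Cox6a1 0.09, Cox5b 0.06), cytosolic ribosomal proteins 0.12 over 17 (Rps2 -0.04, Rps4x 0.17) and cholesterol synthesis 0.00 over 19 (Hmgcs1 -0.01, Fdft1 -0.02). The members farthest from 0 were the ephrin receptor gene Epha5 (1.42, adjusted p = 0.605), the neurofilament light chain gene Nefl (0.99, adjusted p = 0.606), the glycine receptor subunit gene Glra2 (-0.99, adjusted p = 0.49), the neuroligin gene Nlgn3 (-0.99, adjusted p = 0.589), the semaphorin gene Sema3e (0.94, adjusted p above 0.99) and the transcription factor gene Sox11 (-0.87, adjusted p above 0.99). In these 10 lists limma called 0 members, and 11 members had an unadjusted p under 0.05.

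Signalling lists gave 0 calls too. Sonic hedgehog genes had a median of -0.07 over 11 (the transducer Smo -0.13, the receptor Ptch1 -0.43), Reelin pathway genes -0.22 over 8 (Vldlr 0.55, Pafah1b1 0.12), neurotrophin and IGF genes 0.00 over 12 (Ntrk2 -0.01, Igf1r -0.53), thyroid hormone response genes 0.08 over 9 (Klf9 0.15, Thra 0.13) and clock genes 0.14 over 16 (Tef 0.26, Clock -0.29). The 0 calls by limma stand beside an unadjusted p under 0.05 for 2 neurotrophin and IGF genes, 1 thyroid response gene and 2 clock genes.

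Cell cycle genes varied more between the P7 arrays than between the ages. Top2a, the topoisomerase of dividing cells, was at 9.94, 6.30 and 5.81 in P7 arrays, against 8.18, 8.42 and 8.09 in P3 arrays (-0.88 ± 0.49, SE; limma, adjusted p above 0.99). P7 replicate 1 lay above and P7 replicates 2 and 3 lay below all P3 arrays. Mki67, the proliferation antigen, had the same order, with 8.57, 5.33 and 5.47 at P7 and 7.06, 7.04 and 7.56 at P3. Mcm5, a subunit of the replicative helicase, was at 10.13, 6.48 and 7.22 at P7 and at 8.62, 8.29 and 8.80 at P3. The mean over 25 cell cycle genes was 7.60, 6.48 and 6.54 in P7 arrays, against 7.14, 7.04 and 7.14 in P3 arrays. 16 of the 25 had their highest value of the 6 arrays in P7 replicate 1. The share of all genes highest in a given array was not computed, here or for the glial, vascular and immediate early lists below.

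With all 6 arrays the list had a median of -0.17 and 0 called (3 with an unadjusted p under 0.05, all lower at P7); Ccnd2 and Ccne1, its brightest members, differed by -0.42 and 0.00. Without P7 replicate 1, 5 of the 25 were called lower at P7 (Top2a, Mki67, Mcm5, Mcm6 and Cdc20), against 25 of 17478 genes called lower (0.143%). P7 replicate 1 is the array in which most of these genes were highest, and leaving out another P7 array gave 0 calls in the list. Without P7 replicate 2 the list's median was 0.05, with Top2a at -0.36, Mcm5 at 0.10 and Mcm6 at 0.30, and without P7 replicate 3 it was -0.01, with Top2a at -0.11 and Mcm6 at 0.31. Without P7 replicate 1 Top2a fell by 2.18 (adjusted p = 1.48e-08) and Mki67 fell by 1.82 (adjusted p = 8.57e-08). Without P7 replicate 1 and P3 replicate 3 together, 4 of the 25 were called lower, against 22 of all genes (0.126%). Without replicate 1 of both ages 4 were called lower (Top2a, Mki67, Mcm5 and Ccnb2), against 20 of all genes (0.114%), and Mcm6 and Cdc20 were not (adjusted p = 0.0712 for both).

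The start regions of Top2a and Ccnb2 are printed because cell cycle promoters of the table shared a pentamer. CCAAT, the box bound by NF-Y, was searched on both strands (ATTGG on the other). It occurred in 37.4% of all promoters and in 20 of the 23 promoters of cell cycle genes (87%), which cover 22 of 26 listed genes. Top2a at chr11:99024140-99024439 (-) held 6 and Ccnb2, a mitotic cyclin, at chr9:70421505-70421804 (-) held 3 (RefSeq, GRCm38.p6). Capitals mark the box on either strand.
Top2a: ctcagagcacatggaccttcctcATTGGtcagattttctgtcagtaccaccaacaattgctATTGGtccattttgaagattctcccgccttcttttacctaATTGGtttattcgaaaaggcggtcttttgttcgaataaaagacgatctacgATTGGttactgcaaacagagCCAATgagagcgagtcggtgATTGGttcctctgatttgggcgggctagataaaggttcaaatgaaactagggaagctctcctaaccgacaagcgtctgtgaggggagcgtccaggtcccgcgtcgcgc
Ccnb2: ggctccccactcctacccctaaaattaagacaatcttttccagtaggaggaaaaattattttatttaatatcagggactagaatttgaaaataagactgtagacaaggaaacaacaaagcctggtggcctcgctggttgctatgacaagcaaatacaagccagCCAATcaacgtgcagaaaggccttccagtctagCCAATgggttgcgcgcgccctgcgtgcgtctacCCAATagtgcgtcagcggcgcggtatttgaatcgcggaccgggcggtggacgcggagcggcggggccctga

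Other genes that set P7 replicate 1 apart are named for their SD. Ctnna1, which encodes alpha-catenin of adherens junctions, was at 10.48 in P7 replicate 1 and at most 6.82 in the other P7 arrays, against 7.87, 7.85 and 8.36 in P3 arrays. Tox3, a chromatin factor, was at 9.23, 5.54 and 5.32 at P7 and between 6.14 and 7.35 at P3. In the other direction, Sla, a Src-like adaptor, was at 6.68, 10.91 and 10.55 at P7 and between 8.91 and 9.29 at P3, and Lhfp was at 5.88, 9.78 and 9.58 at P7 and between 7.99 and 8.43 at P3. In each of these 4 genes the P3 arrays fell between P7 replicate 1 and the other P7 arrays. Proser2 was at 5.20, 9.22 and 8.54 at P7, against 6.97, 5.95 and 6.52 at P3. Malat1, an abundant nuclear RNA, was at 8.51, 11.58 and 12.62 at P7 and at 9.84, 12.11 and 11.61 at P3, lowest in replicate 1 of each age.

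Glial genes stood apart in the same P7 array. The mean over 13 astrocyte and Bergmann glia markers was 8.14, 7.27 and 7.09 in P7 arrays, against 7.43, 7.68 and 7.42 in P3 arrays, and 7 of the 13 were highest in P7 replicate 1. Fabp7, the brain lipid binding protein of radial and Bergmann glia, was at 11.82, 10.83 and 10.04 at P7 and between 10.19 and 10.53 at P3. Hopx differed by 0.56, with P7 values between 9.44 and 9.61 and P3 values between 8.74 and 9.16. Gja1, the astrocyte connexin 43, chosen after its values were seen, went the other way, at 5.78, 5.86 and 5.21 at P7 and at 6.98, 8.72 and 6.81 at P3. No member of the list was called (2 had an unadjusted p under 0.05), its median was 0.14, and the part of glial RNA in the changes above was not tested.

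Without P7 replicate 1, 24 genes were called higher (0.137%) and 25 lower (0.143%), and 8 of the 9 genes called with all arrays were among them. Beside those already given, Dbp (2.12, adjusted p = 7.69e-06), Kcna1 (1.38, adjusted p = 0.0288) and Kcnc4 (1.27, adjusted p = 0.00784) rose, the last pair being voltage-gated potassium channels. Fos, an immediate early gene, fell by 1.78 (adjusted p = 0.0334), and Glra2 fell by 1.41 (adjusted p = 0.0221). Without P7 replicate 2 or 3 instead, none of these 5 genes was called. Dbp then differed by 1.38 or 0.96, Kcna1 by 0.49 or 0.43 and Kcnc4 by 0.49 or 0.64. Fos differed by -0.54 or -0.79 and Glra2 by -0.62 or -0.95. The comparison without P7 replicate 1 still holds P3 replicate 1, the other array with low Xist and high Fos. Without replicate 1 of both ages Fos differed by -1.16 (adjusted p = 0.239) and Glra2 by -1.30 (adjusted p = 0.0972), neither called, while Dbp, Kcna1 and Kcnc4 were still called. Without P3 replicate 1 alone the difference of Fos was -0.42. Without P7 replicate 1 and P3 replicate 3 together, Kcna1 (1.36, adjusted p = 0.0875) and Glra2 (-1.34, adjusted p = 0.0874) were not called. With all 6 arrays limma called 0 of these 5 genes, each of which had an unadjusted p under 0.05. Array weights estimated in the model gave P7 replicate 1 the lowest weight of the 6, 0.461, and with those weights 92 genes were called (0.526%), 59 higher (0.338%) and 33 lower (0.189%). P3 replicate 3 had a weight of 2.25, against 1.23 and 1.19 for P3 replicates 1 and 2. The weighted P3 levels thus leaned on the array with low Calb1 and Car8, which were both called with these weights. The estimate of the weights stopped before it reached its convergence tolerance, so the weights and the counts are approximate.

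P3 replicate 3 differed from the other P3 arrays in 2 groups of genes. Beside its low Calb1, Car8, Pcp2, Pcp4 and Nrk it had high values for genes of blood vessels. Cldn5, the endothelial tight junction protein claudin 5, was at 6.46, 6.23 and 6.13 in P7 arrays and at 6.13, 5.98 and 9.37 in P3 arrays. Slco1c1, a thyroid hormone transporter of brain endothelium, was at 7.78 in P3 replicate 3 and between 4.75 and 4.84 in the other 5 arrays. The mean over 14 vascular and meningeal markers was 5.97, 6.02 and 5.97 at P7, against at most 6.06 in P3 replicates 1 and 2 and 6.66 in P3 replicate 3, and 10 of the 14 were highest in P3 replicate 3. Kdr and Flt1, receptors for vascular growth factor, differed by -0.15 and -0.09 between the ages. The list's median was -0.12 with 0 called (1 with an unadjusted p under 0.05), and the part of vascular RNA in the low Purkinje markers of that array was not tested.

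Selenop, a selenium carrier, was also highest there, at 10.69, against 7.22 and 8.18 in P3 replicates 1 and 2 and 8.58, 7.29 and 7.18 in P7 arrays. Igf1, an insulin-like growth factor, was lowest there, at 5.89, with 9.09 and 9.22 in the other P3 arrays and between 7.90 and 9.32 at P7. Without P3 replicate 3, 1 gene was called higher (0.00572%) and 9 lower (0.0515%), 0.0572% together, 3 of them among the 9 genes called with all arrays.

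The immediate early genes Fos and Egr1 were high in replicate 1 of both ages. Fos was at 11.92, 9.44 and 9.95 in P7 arrays, against 12.71, 10.73 and 10.99 in P3 arrays. Egr1 was at 10.45, 8.09 and 8.17 at P7 and at 11.57, 9.16 and 9.31 at P3. The mean over 22 immediate early and stress genes was 8.15, 7.64 and 7.67 at P7 and 8.37, 7.87 and 7.79 at P3. At both ages replicate 1 had the highest mean, though not every member followed it. Of the 22, 5 were highest of the 6 arrays in P7 replicate 1 and 8 in P3 replicate 1. The list had a median of -0.11 and 0 called (3 with an unadjusted p under 0.05, all lower at P7); the chaperone genes Hsp90aa1 and Hspa5 differed by 0.07 and -0.18. The replicate 1 arrays are those with low Xist, and sex-linked expression and immediate early genes cannot be told apart here.

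**Figure D4:**
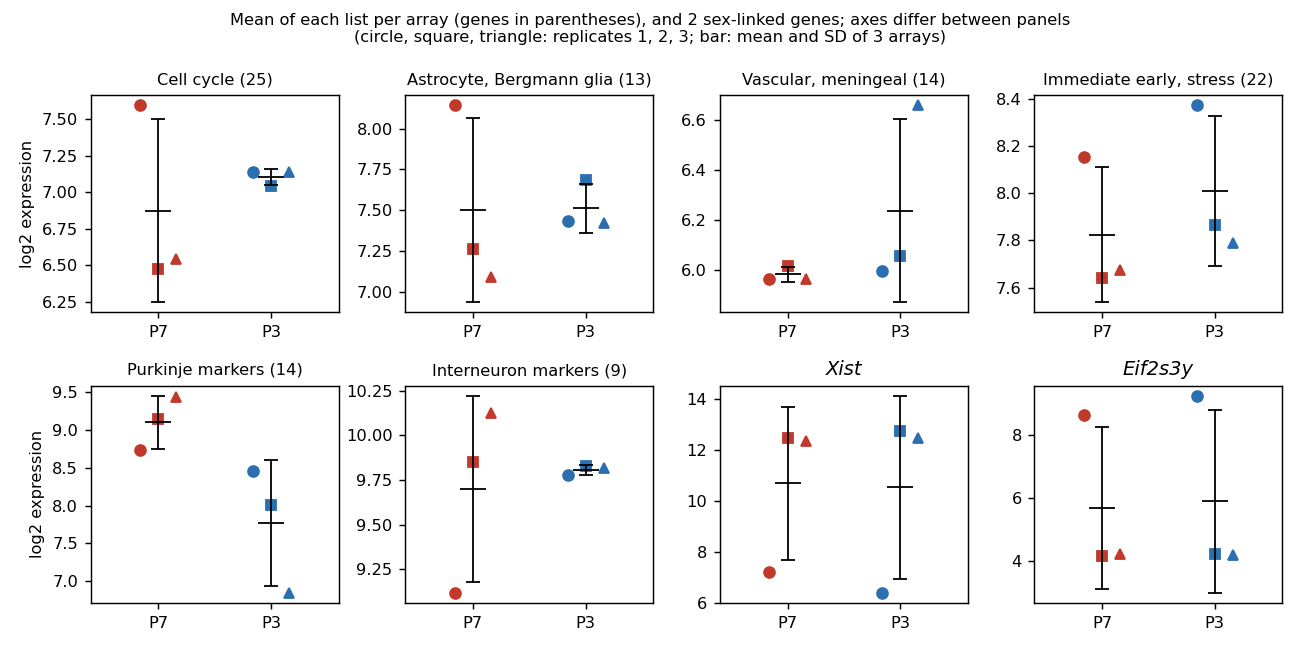
Mean log2 expression of 6 gene lists and levels of Xist and Eif2s3y in each P7 (red, left) and P3 (blue, right) Purkinje array; circle, square and triangle are replicates 1, 2 and 3, and bars give the mean and SD of 3 arrays. Replicate 1 is apart at P7 for cell cycle and glial genes, and replicate 3 is apart at P3 for vascular genes and Purkinje markers. Replicate 1 of both ages is apart for the mean of immediate early and stress genes, Xist and Eif2s3y.

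Markers of other cell types had list medians between -0.08 and 0.19, with Cnp and Sst as the members farthest from 0. Granule cell markers had a median of -0.04 over 16 genes, with 0 called and 0 with an unadjusted p under 0.05; Neurod1 was at 10.67 ± 0.22 at P7 and 10.44 ± 0.47 at P3 (SD), against 5.69 in P14 Purkinje arrays. Golgi and unipolar brush cell markers had 0.19 over 7, with Lgi2 at 0.19 and the neuropeptide gene Sst at -1.12 (adjusted p = 0.486). Their mean was 8.34 ± 0.17 at P7 and 8.34 ± 0.18 at P3 (SD). That lay above both P14 groups, at 6.30 in Purkinje and 6.63 in Stellate/Basket arrays. Sst was at 8.99, 7.79 and 10.54 at P7 and between 10.01 and 10.36 at P3, so the ages overlapped. Oligodendrocyte lineage genes had 0.05 over 10, with Cnp, higher in each P7 array than in each P3 array, at 9.74 ± 0.48 at P7 and 8.61 ± 0.30 at P3 (difference 1.13, adjusted p above 0.99) and Mbp at -0.05. Microglial genes averaged 5.66 at P7 and 5.73 at P3, with Csf1r at -0.45 and Trem2 at 0.12, and red blood cell genes averaged 5.20 and 5.27, with Hba-a2 at -0.06 and Hbb-b2 at -0.10. Excitatory cerebellar nuclei markers averaged 5.11 at P7 and 5.10 at P3, with Meis2 at 0.09 and Lhx9 at 0.05. Limma called 0 genes in these 6 lists, and 2 had an unadjusted p under 0.05.

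For most genes the change with age stayed within 2 pooled SDs of the arrays. The median absolute difference between ages was 0.10 and the median pooled SD within ages 0.18, and 1154 genes (6.60%) differed by more than 2 pooled SDs. With so few arrays per age, unchanged genes can also pass that cut, so this share is not a count of changed genes. Of the 106 genes with a difference of at least 1, 9 had a pooled SD larger than the difference. Calb1 and Car8 had pooled SDs among the highest of the genes that differed most, while Exph5, Chst11 and Prr3 combined smaller differences with low spread.

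**Figure D5:**
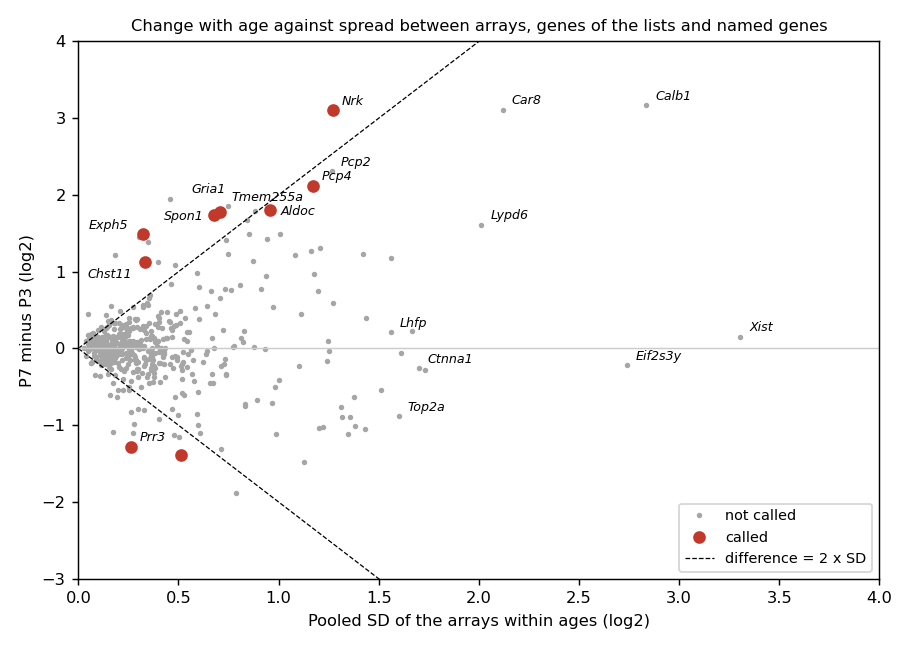
P7 minus P3 log2 difference (vertical) against the pooled SD of the arrays within ages (horizontal) for the genes of the lists and the named genes; red points passed the test, grey points did not, and dashed lines mark a difference of 2 SDs. Calb1 and Car8 have differences of 3.17 and 3.11 at pooled SDs above 2, and Xist and Eif2s3y have pooled SDs of 3.30 and 2.74 with differences near 0.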

How the data were processed

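The authors deposited log2 expression values per probe set in 42 columns. R 2.9.1 and GCRMA appear in the submitters' processing notes; what each did the notes used here do not say. Of the columns, 2 equal the mean of other columns of their group (Stellate/Basket P35 and P56; tolerance 1e-08) and were left out. 34958 probe sets carry 1 gene symbol, 932 several and 9211 none, and the probe set with the highest mean stood for each of 18194 genes. Genes above 5 in at least 3 of 40 arrays were kept (17478). No further scaling was applied. limma 3.58.1 (R 4.3.3) fitted 12 group means, and adjusted p-values are Benjamini-Hochberg over 17478 genes. SDs are over arrays. P-values measure the spread between arrays, pooled over the 12 groups. The procedure was run on simulated data with independent noise and each gene's SD pooled over the groups. It recovered 84% of genes changed by 1.5 and called 3 unchanged genes. Whole arrays that stand apart, as P7 replicate 1 does, were not simulated, so the run cannot vouch for calls among these arrays. Figures used Python 3.11.15 and matplotlib 3.10.9.

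Members, gene lists (544 genes) and naming rules were chosen with earlier results of these data known. Named were called genes, or the 10 smallest p-values per direction, whose arrays did not overlap, called or brightest list members, all Purkinje and interneuron markers, sex and sort checks, and the 10 largest SDs at each age. Egr1, Mki67, Mcm5, Gja1, Ebf1, Bcl11a, Epha5, Nefl, Nlgn3, Sema3e, Sox11, Sst and the genes described without P7 replicate 1 were chosen after their values were seen. List genes outside these values are not used here. Alternatives changed the filter, probe sets, variance model, weights, arrays, scaling, thresholds and a replicate block; 3 more were added after seeing the data.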

Additional observations from a re-analysis of the deposited data

How the results depend on the processing

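The counts of called genes depended on the arrays and on how their spread was estimated. With all arrays 7 genes were higher and 2 lower, and 2 list members were called. These counts were 0, 0 and 0 with the replicate number as a block in a fit of the 6 arrays (912 genes at an unadjusted p under 0.05). They were also 0, 0 and 0 in the 6 arrays alone (854 genes), where fewer arrays estimate the spread and most named called genes had a larger SE. They were 18, 9 and 5 in the Purkinje arrays alone, 59, 33 and 25 with array weights (whose estimate stopped short of convergence), 13, 7 and 5 with all 42 columns, 11, 7 and 4 for genes above log2 7 in at least 3 of the 6 arrays, 3, 2 and 1 with the mean of a gene's probe sets, 7, 5 and 2 with no minimum difference, and 0, 1 and 0 at an adjusted p under 0.01. In the 6 arrays alone the SE was 0.63 for Aldoc, 0.77 for Pcp4 and 0.83 for Nrk. With all arrays it was 0.34, 0.40 and 0.58. For Exph5 and Prr3 it was smaller in the 6 arrays alone, 0.22 and 0.19 against 0.29 and 0.22. Leaving out arrays gave 0 to 32 higher, 1 to 25 lower and 0 to 17 list members. Without P3 replicate 2 the counts were 0, 1 and 0, without P7 replicate 3 0, 2 and 1, and without replicate 1 of both ages 32, 20 and 17. The Xist covariate, median centring, the trended variance and no filter kept 7 and 2, and quantile normalization gave 6 and 2; the cause of the other moves was not tested. The mean distance between ages was 0.404, 0.49 in genes above log2 7 and 0.322 with the mean of probe sets. Over 22 alternatives the 8 named called genes kept their direction, and were called in 12 (Spon1) to 16 (Prr3). Deviations of same-numbered P7 and P3 arrays correlated at -0.03, 0.02 and 0.07, P7 replicate 1 correlated best with P3 replicate 2, and the numbers were not taken as pairs. Signal over background cannot be given without detection calls, so folds near the low end are uncertain.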
